A study of Mus musculus with 6 samples.

Results

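To describe the insulin-like growth factor (IGF) system of kidney fibroblasts in contact with the products of Th17 cells, the transcripts of its ligands, receptors and binding proteins were examined. The genes were Igf1, Igf2, Igf1r, Igf2r and Igfbp2 to Igfbp7, chosen by symbol, and all 10 were found among the 34745 genes of the table and passed the filter on low counts. The cells were primary renal fibroblasts of wild-type mice, grown out of digested kidney in a fibroblast growth medium. After 6 h of attachment, they were cultured either alone (3 libraries, lone fibroblasts) or for 24 h under an insert with 0.4 μm pores that held induced Th17 cells, the helper T cells that make interleukin-17 (3 libraries, cocultured fibroblasts). Only the fibroblasts below the insert were collected. Per the paper, the Th17 cells were induced from spleen CD4+ T cells with antibodies to CD3, CD28 and interferon-γ. Interleukin-1β, interleukin-6 and interleukin-23 were added to them. No further allele or agent was given for either group, and the age of the mice was not stated. Balb/c is the strain named for the animal model, and none was given for the fibroblast donors. No culture with other T cells was analysed here, and an empty insert above the lone fibroblasts was not described. The culture time of the lone fibroblasts after attachment was not given either. An effect of Th17 cells thus cannot be told apart from one of any T cell, carried-over inducing agents, the insert or culture time. The sources do not say if replicate libraries stem from separate cultures or mice. SD, SE and p-values therefore reflect only these 3 libraries of a group, whose spread may be technical. The SE and p-values of the count test also draw on the spread of other genes.

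IGF1 and IGF2 are secreted growth factors that signal through IGF1R, a receptor tyrosine kinase that acts on the PI3K-AKT and MAPK pathways. IGF2R, which is also the cation-independent mannose-6-phosphate receptor, carries IGF2 to the lysosome and does not signal as IGF1R does. The IGF binding proteins (IGFBPs) are secreted proteins that hold the ligands in the extracellular fluid, and proteases that cut them release the ligand again. In the kidney, fibroblasts and other stromal cells are among the sources of these proteins, and the system is known for its part in growth, repair and scarring.

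Library totals lay between 12050529 and 13209581 counts. On this scale, the 3 counts that a count of 0 allows correspond to 0.223 to 0.254 CPM (counts scaled to a common library total). All 10 fibroblast markers (among them Col1a1, Pdgfra and Dcn) were detected in every library, but 9 fell and 1 rose with Th17 cells (4 and 1 of them more than 2-fold), and their summed level was 46850 to 48946 CPM in lone and 23047 to 26277 CPM in cocultured fibroblasts. Of 12 macrophage markers, 7 were tested and 6 fell, with a summed level of 59.5 to 63.2 CPM against 20.1 to 21.5 CPM. The mural list (1796 to 1884 against 701 to 828 CPM), the epithelial list (19.2 to 21 against 3.58 to 4.56 CPM) and the endothelial list (6.79 to 8.03 against 2.05 to 3.06 CPM) were also lower in summed level in cocultured fibroblasts, with 4 of 5, 2 of 3 and 1 of 2 tested genes called lower. Over all genes tested, 20.0% were called lower and 17.1% higher, and the lists with 2 or 3 tested genes are too short to read against these shares. Of 15 T cell markers, 2 were tested and 1 was called lower, and they summed to at most 8.69 CPM in every library. Lck, the gene called lower, had 49, 68 and 59 counts in lone and 33, 34 and 23 in cocultured fibroblasts. Trac was detected in every library, with 20, 40 and 38 against 41, 27 and 38 counts. Of the 15, Cd3d, Cd8a, Cd2, Cd5, Il17a and Il17f were at 0 in every library. Many of the markers of these lists moved with the same contrast as the IGF genes, and their part in the results was not tested. In bulk RNA, fewer cells of a type and less RNA per cell cannot be told apart.

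Promoter sequence is shown for 4 genes whose transcripts differed by about 2-fold or more between the groups, Igfbp6 upward and Igf2, Igfbp2 and Igfbp4 downward, so that the letters before their starts can be set side by side. The window of Igf1 overlaps annotated exon sequence and is not shown. Each line gives the 120 bases before a RefSeq start on build GRCm38.p6, 5′ to 3′ on the strand of the gene. Capitals mark a match on either strand to one of 4 motifs. The first is the GC box, with the letters GGGCGG, where the factor SP1 can bind. The CCAAT box is searched by the letters of its name. For the TATA box, which places the start of transcription in some genes, the letters are TATAAA. The AP-1 site, searched as TGANTCA, binds FOS and JUN proteins.
Igf2, the last of 4 annotated starts, minus strand, chr7:142657497-142657616: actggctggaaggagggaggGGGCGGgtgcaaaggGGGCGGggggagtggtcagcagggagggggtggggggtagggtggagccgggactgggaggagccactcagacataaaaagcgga
Igfbp2, first annotated start, plus strand, chr1:72824360-72824479: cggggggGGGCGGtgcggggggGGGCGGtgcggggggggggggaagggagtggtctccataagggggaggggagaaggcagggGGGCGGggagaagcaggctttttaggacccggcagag
Igfbp4, plus strand, chr11:99041124-99041243: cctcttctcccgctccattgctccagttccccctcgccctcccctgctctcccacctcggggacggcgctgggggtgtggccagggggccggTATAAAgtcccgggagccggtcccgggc
Igfbp6, plus strand, chr15:102144066-102144185: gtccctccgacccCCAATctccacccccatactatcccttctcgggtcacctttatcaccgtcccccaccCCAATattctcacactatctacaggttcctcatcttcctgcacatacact
Over the 250 bases before these starts, of which the lines show the last 120, Igf2 held 2 GC boxes and a CCAAT box, Igfbp2 3 GC boxes, Igfbp4 a TATA box, and Igfbp6 2 CCAAT boxes and a TATA box. The CCAAT box of Igf2 and the TATA box of Igfbp6 lie before the bases shown. Of the other Igf2 starts, the first had 0 matches and 50.8% G and C, and the second and the third, whose windows overlap annotated Igf2 exon sequence, had 0 and 1. The Igf2 start shown is thus the one with most matches and was chosen with them known. The second Igfbp2 start, whose window overlaps annotated Igfbp2 exon sequence, had 1 match, an AP-1 site, and 56.4% G and C. The window of Igf1, not shown, held an AP-1 site and a CCAAT box. Over the 250 bases before 32851 annotated starts, a GC box was found in 32.7%, a CCAAT box in 33.8%, a TATA box in 12.4% and an AP-1 site in 6.75%. The G and C content of these 250 bases was 67.2% for Igfbp2, 69.2% for Igfbp4, 66.0% for this start of Igf2 and 49.6% for Igfbp6, beside a median of 52.4% over all starts. A match describes the letters only, and the data do not show which start was used.

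To compare the levels of the genes with each other, the deposited FPKM values were used, which are scaled to gene length. In lone fibroblasts the binding proteins Igfbp7 (456 ± 24.1 FPKM, SD, n = 3) and Igfbp3 (226 FPKM) were far above the rest. They were followed by Igf2r (16.7 FPKM), Igfbp6 (12.3), Igfbp4 (10.2), Igf1r (9.56), Igfbp5 (7.61), Igfbp2 (3.7), Igf2 (1.54) and Igf1 (1.08). Of the neighbours in this order, Igfbp6 and Igfbp4, and Igfbp4 and Igf1r, overlapped between libraries and the others did not. Igfbp7 and Igfbp3 lay at the 99.5th and 98.9th percentile of all tested genes, and Igf2 and Igf1 at the 26.2nd and 20.1st. In cocultured fibroblasts the order was Igfbp7 (397 FPKM), Igfbp3 (133), Igfbp6 (25), Igf2r (15.6), Igf1r (12.3), Igfbp5 (7.28), Igfbp4 (5.29), Igfbp2 (1.66), Igf1 (0.319) and Igf2 (0.31). Here the libraries overlapped only for Igf1 and Igf2. The order below Igfbp7 and Igfbp3 depends on the gene lengths used. The length behind the FPKM of Igf1r was 4489 bases against 11409 in its longest coding transcript. For Igf2 it was 13154 against 4722 bases and for Igf1 13144 against 7052, which lowers the FPKM of both ligands. The percentiles rest on the deposited lengths. With the longest coding transcript for every gene, Igf1r moved from rank 6 to rank 9 in lone and from rank 5 to rank 7 in cocultured fibroblasts. Igf2 was then at rank 8 in lone fibroblasts, and Igf2 and Igf1 at ranks 9 and 10 in cocultured ones. Igfbp7 and Igfbp3 were ranks 1 and 2 either way. The deposited Igf1r entry ends at base 68226780 of chromosome 7, and the annotated gene ends at 68233668. Its counts may thus not cover the longest transcript, in which case the ranks with that length understate Igf1r. This was not tested.

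Between lone and cocultured fibroblasts, 6 of the 10 genes fell and 2 rose (adjusted p below 0.05, edgeR quasi-likelihood test with Benjamini-Hochberg adjustment over 13088 genes). Of all genes tested, 20.0% fell and 17.1% rose. With a fold change above 2 in addition, which is the limit the study used, 4 of the genes were lower, and both that rose did so by less than 2-fold, beside 7.78% lower and 3.87% higher over all genes. The CPM of the groups did not overlap in 9 of the 10, compared with 50.4% of all genes. Their median log2 fold change was −0.55, beside 0.00 over all genes. Values below are TMM-normalised CPM for levels, and log2 fold changes are with Th17 cells relative to alone.

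**Figure D1:**
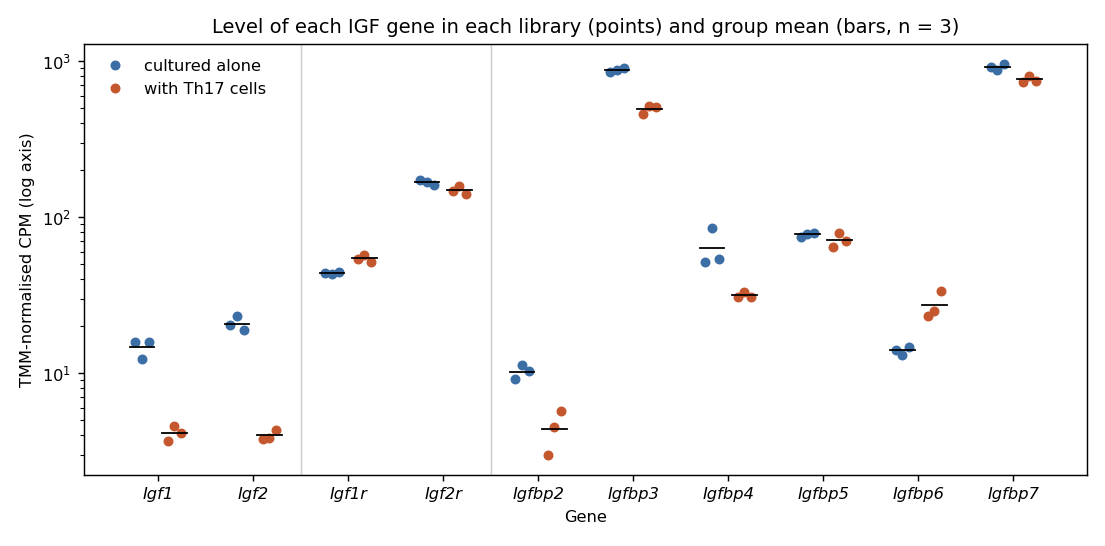
TMM-normalised CPM on a log axis of each IGF gene in the 3 libraries of lone fibroblasts (blue points) and the 3 of cocultured fibroblasts (orange points), with black bars for group means. Igf1 and Igf2 fall from 14.6 and 20.7 CPM to 4.1 and 3.99 CPM, Igfbp6 rises from 14 to 27.2 CPM, and only the points of Igfbp5 overlap between groups.

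Both ligands fell, and they showed the largest changes of the 10 genes. Igf2 (ENSMUSG00000048583, GRCm38 chromosome 7, 142650766 to 142666816, minus strand), a growth factor of fetal life that is imprinted and read from the paternal allele, had 260, 293 and 223 counts in lone and 51, 49 and 57 counts in cocultured fibroblasts. Every cocultured library thus lay far below every lone one. Its level went from 20.7 ± 2.2 to 3.99 ± 0.299 CPM (SD, n = 3), 5.18-fold lower (log2 fold change −2.37, SE 0.138, edgeR adjusted p = 1.64e-06). The annotation lists another protein-coding gene, Gm49394, on the same strand with 3596 exon bases in common with Igf2. That gene had no entry with counts here, and how fragments that match both genes were handled was not stated. The antisense gene Igf2os, which shares 98 exon bases, had 2 counts or fewer in each library.

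Igf1 (ENSMUSG00000020053, chromosome 10, 87858265 to 87937042, plus strand), the ligand that mediates much of the action of growth hormone, had 202, 156 and 186 counts alone and 49, 58 and 54 with Th17 cells. The groups were well apart. The level went from 14.6 ± 1.95 to 4.1 ± 0.456 CPM (SD, n = 3), 3.55-fold lower (log2 fold change −1.83, SE 0.16, edgeR adjusted p = 2.59e-05). Macrophages also express Igf1, and macrophage markers moved with it: Adgre1, which encodes F4/80, had 71, 47 and 55 counts in lone and 0 in each cocultured library, and Lyz2 had 358, 337 and 337 against 49, 44 and 38. Csf1r went from 77, 81 and 65 counts to 30, 19 and 19, whereas Cd14 had 151, 140 and 127 against 129, 140 and 170. The part of these cells in the change of Igf1 was not tested. In FPKM, the ligands together went from 2.63 ± 0.0404 to 0.629 ± 0.0446 (SD, n = 3, exact permutation test, two-sided, p = 0.1, the smallest that 3 against 3 libraries can give). With pseudocount 1 on the FPKM scale, limma gave log2 fold changes of −0.95 for Igf2 and −0.66 for Igf1, both still called, because a pseudocount understates the change of such low genes.

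Of the receptors, 1 rose and 1 did not pass the test. Igf1r (ENSMUSG00000005533, chromosome 7, 67952859 to 68226780, plus strand), the signalling receptor, had 563, 547 and 529 counts in lone and 725, 724 and 681 in cocultured fibroblasts. All cocultured libraries were above all lone ones. It rose 1.24-fold, from 43.9 ± 0.773 to 54.2 ± 2.54 CPM (SD, n = 3, log2 fold change 0.30, SE 0.072, edgeR adjusted p = 0.00963).

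Igf2r (ENSMUSG00000023830, chromosome 17, 12682406 to 12769664, minus strand), which clears IGF2 and is imprinted in the mouse, did not pass the test. It had 2220, 2123 and 1897 counts in lone and 1971, 2026 and 1859 in cocultured fibroblasts, or 167 ± 6.01 and 149 ± 9.12 CPM (SD, n = 3). The CPM of the groups did not overlap, but the log2 fold change was −0.16 with a 95% interval of −0.31 to −0.01 and an edgeR adjusted p of 0.0867. Without cocultured replicate 2 it was called lower, at −0.21 (edgeR adjusted p = 0.042), and over all alternatives the adjusted p lay between 0.042 and 0.268. The antisense transcript Airn, which lies across Igf2r without sharing exon bases, had 26, 25 and 31 against 28, 11 and 36 counts. The FPKM ratio of Igf1r to Igf2r was 0.551, 0.559 and 0.605 in lone and 0.799, 0.776 and 0.795 in cocultured fibroblasts (exact permutation p = 0.1, the smallest possible). The ratio was thus higher in every cocultured library, on the lengths behind the deposited values.

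Of the 6 binding proteins, 4 fell, 1 rose and 1 did not pass the test. Igfbp3 (ENSMUSG00000020427, chromosome 11, 7206086 to 7213923, minus strand), the main carrier of IGFs in the circulation, had 10930, 11093 and 10676 counts in lone and 6171, 6526 and 6634 in cocultured fibroblasts. The spread within each group was small against the gap between them. It fell from 876 ± 27.2 to 492 ± 29 CPM (SD, n = 3), 1.78-fold lower (log2 fold change −0.83, SE 0.061, edgeR adjusted p = 8.16e-06), which is short of the 2-fold limit.

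Igfbp2 (ENSMUSG00000039323, chromosome 1, 72824503 to 72852474, plus strand), a binding protein abundant in fetal tissue, had 117, 142 and 122 counts alone and 40, 57 and 75 with Th17 cells. The cocultured libraries varied more than the lone ones but all lay below them. The level fell from 10.2 ± 1.07 to 4.39 ± 1.37 CPM (SD, n = 3), 2.33-fold lower (log2 fold change −1.22, SE 0.223, edgeR adjusted p = 0.00238). Igfbp5 is its neighbour, 5457 bases away and on the other strand, and it did not pass the test. Igfbp5 (ENSMUSG00000026185, chromosome 1, 72857932 to 72874884, minus strand), which binds extracellular matrix as well as IGFs, had 961, 991 and 935 counts in lone and 862, 1001 and 917 in cocultured fibroblasts. It was the only one of the 10 whose groups overlapped in CPM (log2 fold change −0.13, 95% interval −0.32 to 0.07, edgeR adjusted p = 0.282).

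Igfbp4 (ENSMUSG00000017493, chromosome 11, 99041244 to 99054392, plus strand), which mainly inhibits IGF action and is the main substrate of the protease PAPP-A, had 662, 1076 and 637 counts in lone and 416, 423 and 404 in cocultured fibroblasts. Lone replicate 2 stood above the other two lone libraries. The level fell from 63.4 ± 18.7 to 31.6 ± 1.39 CPM (SD, n = 3), 2.01-fold lower (SE of the log2 fold change 0.178, edgeR adjusted p = 0.00202). When each library was left out in turn, the log2 fold change ranged from −1.14 to −0.73. The smallest change, still called but short of 2-fold, was that without lone replicate 2.

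Igfbp6 (ENSMUSG00000023046, chromosome 15, 102144362 to 102149511, plus strand), which prefers IGF2 over IGF1, was the only binding protein that rose. It had 182, 166 and 174 counts in lone and 311, 316 and 441 in cocultured fibroblasts. All cocultured libraries exceeded all lone ones, and cocultured replicate 3 was the highest. The level rose 1.94-fold, from 14 ± 0.808 to 27.2 ± 5.59 CPM (SD, n = 3, log2 fold change 0.96, SE 0.15, edgeR adjusted p = 0.000983). Leaving out cocultured replicate 3 gave 0.78.

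Igfbp7 (ENSMUSG00000036256, chromosome 5, 77349240 to 77408041, minus strand), a secreted protein that binds IGFs only weakly, was the most abundant of the 10 transcripts in both groups. It had 11763, 11013 and 11383 counts in lone and 9873, 10223 and 9825 in cocultured fibroblasts. The cocultured libraries were all lower, by a small margin. It fell from 915 ± 46.2 to 761 ± 36.6 CPM (SD, n = 3, log2 fold change −0.27, SE 0.061, edgeR adjusted p = 0.00839). The gene shares 85 exon bases with Polr2b on the other strand, and whether counting used the strand was not stated. The genes whose profile over the 6 libraries was nearest to that of Igfbp7 were Lig3, Kctd6 and Rab8a, at distances of 0.05, 0.0645 and 0.0723 in centred log2 CPM.

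**Figure D2:**
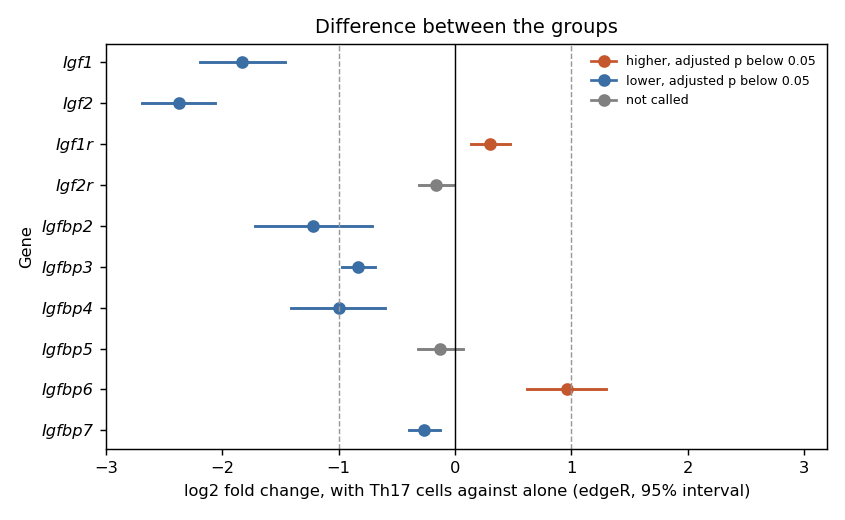
Log2 fold change of each IGF gene with Th17 cells relative to alone (edgeR, 3 libraries a group), with 95% intervals as bars and dashed lines at a 2-fold change. Igf2 (−2.37) and Igf1 (−1.83) lie beyond the dashed line with their whole interval, the intervals of Igfbp2, Igfbp4 and Igfbp6 cross it, and Igf2r and Igfbp5 in grey were not called.

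To describe the make-up of the binding proteins, the FPKM of Igfbp2 to Igfbp7 were summed in each library. The sum was 704, 697 and 749 FPKM in lone and 541, 591 and 575 FPKM in cocultured fibroblasts, so that each cocultured library was lower. The means were 716 ± 28.2 and 569 ± 25.7 FPKM (SD, n = 3), a ratio of 0.794 (exact permutation test, two-sided, p = 0.1, the smallest possible). Igfbp7 and Igfbp3 together supplied most of this sum in every library, as their levels above imply.

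Igfbp7 made up 64.5, 62.2 and 64.3% of the sum in lone and 70.7, 70.3 and 68.2% in cocultured fibroblasts. The share of Igfbp3 was 31.1, 32.5 and 31.3% in lone and 22.9, 23.3 and 23.9% in cocultured fibroblasts. Igfbp6 accounted for 1.76, 1.65 and 1.73% in lone and 3.93, 3.83 and 5.4% in cocultured fibroblasts. Thus the shares of Igfbp7 and Igfbp6 were higher, and that of Igfbp3 lower, in each cocultured library than in any lone one. Mean shares of the others were 1.42 ± 0.457% and 0.931 ± 0.0286% for Igfbp4, 1.06 ± 0.0368% and 1.28 ± 0.0724% for Igfbp5, and 0.518 ± 0.0601% and 0.291 ± 0.0853% for Igfbp2 (SD, n = 3). No group overlapped for any of the 6 shares, and each had an exact permutation p of 0.1 (0.1 after Benjamini-Hochberg adjustment over the 6), which cannot pass the threshold at this number of libraries. Igfbp5, which did not pass the count test, so had a larger share of a smaller sum.

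**Figure D3:**
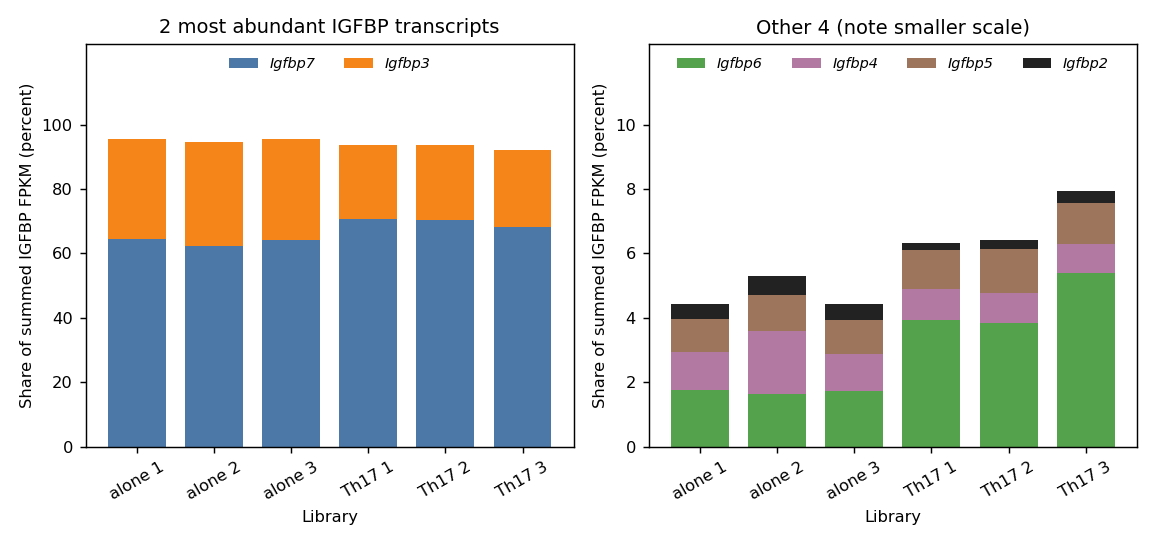
Share in percent of each IGFBP in the summed FPKM of Igfbp2 to Igfbp7, as stacked bars for each of the 3 lone (alone 1 to 3) and 3 cocultured (Th17 1 to 3) libraries, with the less abundant genes on a smaller scale at right. The share of Igfbp3 drops from a mean of 31.6% to 23.4% and that of Igfbp6 grows from 1.72% to 4.39%.

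The rest of the IGF axis was examined with 6 further lists of 64 genes, of which 56 were tested. Of these, 21 rose and 11 fell, and 3 rose and 4 fell more than 2-fold, with a median log2 fold change of 0.04. Over all genes 17.1% rose and 20.0% fell, and 3.87% and 7.78% did so past 2-fold. Among the 56, the counts of lower genes were thus near the background, and the 21 that rose were above it. Igfbp1, Igfals (the acid-labile subunit that binds IGFBP3 and IGFBP5 in serum) and the insulin gene Ins1 were at 0 counts in every library. Ins2 had 0, 2 and 9 counts in lone and 0 in each cocultured library, and Igfbpl1 and the receptor gene Insrr were also too low to test. The insulin receptor gene Insr, which can pair with IGF1R in hybrid receptors, had 788, 706 and 668 counts in lone and 994, 985 and 1124 in cocultured fibroblasts. Each cocultured library was higher, and Insr rose from 57.8 ± 2.93 to 78.9 ± 5.95 CPM (SD, n = 3, log2 fold change 0.45, SE 0.080, edgeR adjusted p = 0.00208).

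Among 7 listed genes of proteases that cut binding proteins and of their inhibitors, 6 were tested and 5 fell, beside 20.0% lower over all genes. Those that fell were 3 protease genes (Pappa, Htra1 and Adam12) and 2 inhibitor genes (Stc1 and Stc2). Pappa, which encodes the protease PAPP-A that frees IGF from IGFBP4, had 4945, 4181 and 4219 counts in lone and 1151, 950 and 1021 in cocultured fibroblasts. It fell from 357 ± 26.7 to 79.3 ± 5.65 CPM (SD, n = 3, log2 fold change −2.17, SE 0.081, edgeR adjusted p = 1.24e-07). The FPKM ratio of Pappa to Igfbp4 was 4.14, 2.15 and 3.67 in lone and 1.53, 1.24 and 1.4 in cocultured fibroblasts (exact permutation p = 0.1, the smallest possible). All cocultured libraries lay below all lone ones, with lone replicate 2, where Igfbp4 was high, nearest to them.

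Htra1, a serine protease that cuts IGFBP5 among other substrates, had 2867, 3086 and 2896 counts in lone and 969, 945 and 919 in cocultured fibroblasts (log2 fold change −1.72, SE 0.066, edgeR adjusted p = 1.37e-07). Adam12, a metalloprotease that cuts IGFBP3 and IGFBP5, had 4540, 4582 and 4246 against 1637, 1558 and 1400 counts (−1.61, SE 0.070, edgeR adjusted p = 2.67e-07). Both groups were widely apart in both genes. The stanniocalcin genes Stc1 (−0.30, edgeR adjusted p = 0.0275) and Stc2 (−0.43, edgeR adjusted p = 0.0355), whose products inhibit PAPP-A, were called lower, but these calls were lost in 8 and 6 of 15 alternatives. Adam9 had a log2 fold change of 0.10 (edgeR adjusted p = 0.517), and Pappa2 was too low to test.

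In the growth hormone arm, which drives Igf1 in liver, 3 of 8 genes rose and 1 fell, beside 17.1% and 20.0% of all genes. The growth hormone receptor Ghr had 1595, 1403 and 1388 counts in lone and 1581, 1368 and 1437 in cocultured fibroblasts (log2 difference −0.07, SE 0.069, edgeR adjusted p = 0.437). Jak2, Stat5a and Stat5b, which signal behind it, had log2 fold changes of −0.11, −0.12 and −0.29 and were not called (edgeR adjusted p 0.166, 0.585 and 0.154). The genes that rose encode inhibitors of cytokine receptor signalling. Socs3 had 434, 459 and 416 counts in lone and 2388, 2435 and 3134 in cocultured fibroblasts (2.53, SE 0.113, edgeR adjusted p = 3.17e-07), and Cish had 247, 116 and 250 against 1787, 1089 and 1137 (2.63, SE 0.286, edgeR adjusted p = 0.000107). Socs1 rose by 0.70 on the log2 scale (edgeR adjusted p = 0.00663). Socs2 fell by 0.58 (edgeR adjusted p = 0.03), a call lost in 7 of 15 alternatives.

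Of 26 adaptors and kinases behind the receptor, 25 were tested, 10 rose and 4 fell, all by less than 2-fold. These shares compare with 17.1% higher and 20.0% lower over all genes. The ends of the range were named after their values were seen. The lowest was Grb10, an adaptor that restrains IGF1R, at −0.74 (edgeR adjusted p = 9.15e-06). At the upper end were Grb14, a related inhibitory adaptor, at 0.79 (edgeR adjusted p = 0.0014) and Irs2, a docking protein of the receptor, also at 0.79 (edgeR adjusted p = 0.000601). The other main docking protein gene, Irs1, was at 0.55 (edgeR adjusted p = 0.00116). Of 12 FoxO factors and transcripts that they induce, 5 rose and the other 7 did not pass the test, beside 17.1% higher over all genes. The one past 2-fold was Cited2, a transcriptional coregulator, with 1984, 2076 and 1859 counts in lone and 5423, 5590 and 6369 in cocultured fibroblasts (log2 fold change 1.48, SE 0.076, edgeR adjusted p = 7.67e-07).

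H19, a noncoding RNA that shares an imprinted domain with Igf2 and is read from the maternal allele, lies 72622 bases from it on the same strand. It had 414, 426 and 391 counts in lone and 64, 37 and 44 in cocultured fibroblasts. The groups were far apart, as those of Igf2 were. H19 fell from 32.9 ± 0.767 to 3.67 ± 0.967 CPM (SD, n = 3), 8.93-fold lower (log2 fold change −3.16, SE 0.163, edgeR adjusted p = 7.79e-07). The FPKM ratio of H19 to Igf2 was 3.68, 3.36 and 4.05 in lone and 2.9, 1.75 and 1.79 in cocultured fibroblasts (exact permutation p = 0.1, the smallest possible). Its size rests on the gene lengths behind the deposited values. This ratio, like the others above, is one of 2 sums and 7 ratios computed over the same libraries, beside the 6 shares. Of the genes of the IGF2 mRNA-binding proteins, which bind Igf2 mRNA and other transcripts, Igf2bp1 (0.58, edgeR adjusted p = 0.00139) and Igf2bp3 (0.73, edgeR adjusted p = 0.000103) rose, and Igf2bp2 was at −0.11 (edgeR adjusted p = 0.485).

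**Figure D4:**
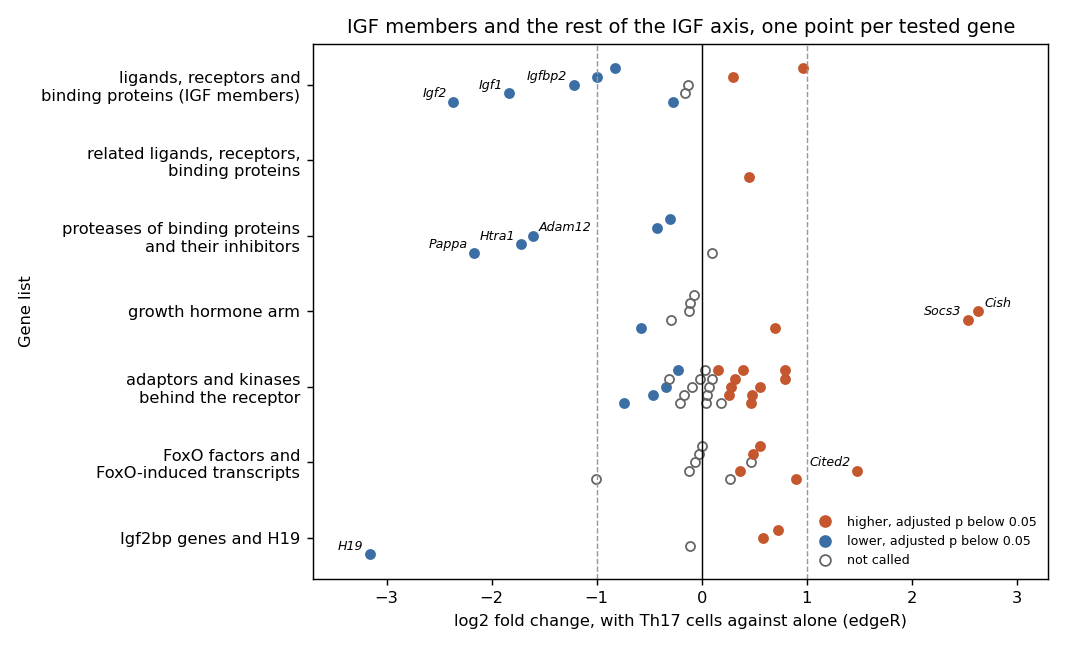
Log2 fold change with Th17 cells relative to alone (edgeR) of the 10 IGF genes and 56 further tested genes of the IGF axis, 1 point per gene, in rows by list, with dashed lines at a 2-fold change and filled points for an adjusted p below 0.05. H19 (−3.16), Igf2 (−2.37) and Pappa (−2.17) lie farthest to the left and Cish (2.63) and Socs3 (2.53) farthest to the right, while the adaptors and kinases stay within the dashed lines.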

How the data were processed

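RNA of 6 fibroblast libraries was sequenced. Per the authors, reads passed a Seqtk filter, HISAT2 2.0.4 placed them on mm10 and StringTie 1.3.3b gave fragments per gene, versions and build being taken from the submitters' processing notes. They deposited raw counts and FPKM values for each gene and library. The annotation, the use of strand and the handling of fragments that match several genes were not stated. The FPKM values carry no TMM factor, since 1 gene length fitted all libraries within 1% in 100% of 10223 genes.

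Counts were tested in R 4.3.3 with edgeR 4.0.16 (filterByExpr with minimum count 10, TMM, glmQLFit and glmQLFTest, Benjamini-Hochberg adjustment over 13088 genes), without covariates. The common dispersion was 0.0136. SE is the log2 fold change divided by the square root of F. A gene "rose" or "fell" at an adjusted p below 0.05. Sums and shares of FPKM were compared by exact permutation of the 6 libraries. For 59 symbols listed more than once, the entry with the highest counts was kept. Same-group libraries differed beyond sampling noise, so they were not resampled copies of each other, and each was counted as 1 replicate. This does not show that they come from separate cultures. Data were simulated with the common dispersion for every gene and 200 of 13088 genes changed 4-fold between the 2 groups. On these, edgeR recovered 99.5% of the changed genes and called 9 unchanged genes. Smaller changes and gene-specific dispersions were not simulated, so these rates do not apply to the smaller changes reported here. The floor of 3 counts covers counting error only, as reads from PCR need not be separate molecules.

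The genes and lists were chosen with earlier results of these data known. Named were all 10 genes, axis genes past the test with a fold change above 2, all genes of the lists of related ligands and receptors, proteases and growth hormone signalling, and the 3 genes nearest to the most abundant one. Grb10, Grb14, Irs1, Irs2 and Igf2bp1 to Igf2bp3 were named in addition, outside this rule. Marker genes were counted as lists, and Adgre1, Lyz2, Csf1r, Cd14, Trac and Lck were named after their values were seen. Groups were taken from sample titles. Alternatives were other scalings (relative log expression, upper quartile, library size only), DESeq2 1.42.0, other filters, limma 3.58.1 on log2(FPKM + 1) and log2(FPKM + 0.1), a replicate block and leaving out each library. Figures were drawn with matplotlib 3.10.9. Promoters came from RefSeq on GRCm38.p6.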

Additional observations from a re-analysis of the deposited data

How the results depend on the processing

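Of the 10 genes, 9 kept their direction and their side of the threshold in all 15 alternatives, and Igf2r was called lower only without cocultured replicate 2. No log2 fold change of a called gene changed sign. Calls past a 2-fold change were less stable. Lower genes past 2-fold numbered 4, but 3 under the replicate block (without Igfbp4) and 0 under limma on log2(FPKM + 1), and 2 to 4 when each library was left out in turn, with 2 (Igf1 and Igf2) without cocultured replicate 1. Igfbp4 also dropped below 2-fold with library size only, upper quartile factors, DESeq2, at least 10 counts in every library, limma on log2(FPKM + 0.1), without lone replicate 2 and without cocultured replicate 3. Higher genes past 2-fold numbered 1 (Igfbp6) with library size only, and 0 to 1 when each library was left out (1 without cocultured replicate 1 or 2). With limma on log2(FPKM + 1), which shrinks low genes, 224 genes were higher and 402 lower past 2-fold over the whole table, in place of 506 and 1018, and the median of the 10 genes was −0.43. Of the other axis genes, 7 were lower in place of 11 with limma at both pseudocounts, and 7 to 11 when each library was left out, with 7 without lone replicate 1. The cause of these shifts was not tested. Of all calls, 53.8% were lower with TMM, 43.9% when scaled by library size alone, and 44.2% and 44.4% for limma at pseudocounts 1 and 0.1. Same-numbered libraries did not deviate together (correlations 0.0157, −0.0256 and −0.0036), so the numbers were not taken as pairs, and the replicate block changed no call of the 10 genes. The difference of the summed IGFBP level was −148 FPKM as deposited. With TMM library sizes the difference was −176 FPKM, and with the longest coding transcript as gene length, chosen after seeing the data, −243. Counts of under 60 for Igf1 and Igf2 in cocultured fibroblasts limit the precision of their folds.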
